A study of Homo sapiens with 12 samples.

Results

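The 9 genes described here govern how a cell burns, releases or stores fatty acids, and most of them are known targets of the peroxisome proliferator-activated receptors (PPARs). They are *CPT1A* and *CPT2* of the carnitine shuttle, *ACADVL* and *ACADM* of mitochondrial beta-oxidation, *PDK4*, *ANGPTL4*, the lipid droplet coat genes *PLIN2* and *PLIN3*, and the lipase gene *PNPLA2*. They were taken by name from the 18417 genes that had a feature with a single gene symbol on the Affymetrix Human Gene 1.0 ST array. Each of the 9 had exactly 1 such feature. Expression was measured in Calu-6 cells, a human lung cancer cell line, grown in DMEM/F12. Cells were transfected by Lipofectamine RNAiMAX with scrambled SMARTpool siRNA (siControl) or with SMARTpool siRNA against *LAPTM4B*, which encodes a lysosomal membrane protein (siLAPTM4B). The day after, they were either given medium with 0% FBS or kept in medium with 10% FBS, and RNA was collected 48 h after the change of medium, 72 h after transfection. This gave 4 groups, siControl 0% FBS, siLAPTM4B 0% FBS, siControl 10% FBS and siLAPTM4B 10% FBS, each with 3 arrays from independent transfections. All 12 arrays thus came from 1 cell line, and the knockdown from 1 pool of siRNAs. The comparisons ask how *LAPTM4B* bears on expression in each medium and, across media, how the genes differed after serum was removed.

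PPARs are nuclear receptors that bind DNA as pairs with a retinoid X receptor (RXR) and are switched on by fatty acids and their derivatives. Their known targets include genes for the uptake of fatty acids, their entry into mitochondria, their oxidation and their storage in lipid droplets. Serum supplies cultured cells with fatty acids, lipoproteins and growth factors at once, so that its removal changes all of these together. *PDK4*, *CPT1A* and *ANGPTL4* are also known to rise with fasting in several tissues.

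Values are log2 expression as deposited, so that a difference of 1 is a doubling. Differences were tested in limma over 19460 features with 1 gene symbol, and a gene was called higher or lower at an adjusted p under 0.05. *LAPTM4B* itself was lower in siLAPTM4B cells in both media, with a change of -1.42 on the log2 scale without serum (ratio 0.373) and of -1.75 with 10% FBS (ratio 0.297), in the direction that the labels give. On serum withdrawal it rose by 0.15 (limma adjusted p = 0.03) in siControl cells and by 0.48 (adjusted p = 0.000113) in siLAPTM4B cells. The knockdown was thus weaker without serum, with an interaction of knockdown and serum of 0.33 (limma adjusted p = 0.0345). Arrays of a group correlated with each other at a mean r of 0.9978 to 0.9985, and with arrays of other groups at 0.9922 to 0.9937, and no array stood apart. The epithelial keratins *KRT8* and *KRT18* and the mesenchymal filament gene *VIM* were above each array's upper quartile on all 12 arrays. The keratin *KRT19* (7.91 to 8.25) and the mesenchymal cadherin *CDH2* (6.36 to 6.55) were above it on 0 arrays. *CDH1*, for E-cadherin, lay at 6.10 to 6.29, near the lower quartiles of 6.15 to 6.19. The lung lineage gene *NKX2-1* lay at 6.83 to 7.13, under every array's median, and the leukocyte gene *PTPRC* lay under the lower quartile on all 12 arrays. The leukocyte genes *CD3E* (6.67 to 6.82) and *CD14* (7.12 to 7.7) lay under the lower quartile on 0 arrays. Of the adipocyte markers, *ADIPOQ* (6.17 to 6.72), *LEP* (6.65 to 7.0) and *CIDEC* (6.98 to 7.27) were under the median of the arrays and *PLIN1* was at 8.06 to 8.29, whereas *FABP4* was at 13.0 to 13.4. The epithelial marker *EPCAM* moved with serum, from 8.20 to 8.52 in siControl 10% FBS to 9.33 to 9.60 in siControl 0% FBS. With 10% FBS it moved with the siRNA too, being at 8.67 to 9.05 in siLAPTM4B cells, above the siControl arrays of that medium. Without serum the siLAPTM4B arrays, at 9.55 to 9.89, overlapped with the siControl arrays. The part of *EPCAM* in the results below was not tested. RNA came from whole cultures, so more RNA per cell and more cells with the RNA cannot be told apart.

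Serum withdrawal raised 5 of the 9 genes in siControl cells and lowered 2. *PDK4* and *ANGPTL4* rose most, to 2.95 and 2.70 times their level in 10% FBS, followed by *PLIN2* (1.81 times), *CPT1A* (1.42 times) and *ACADVL* (1.24 times), while *CPT2* and *PNPLA2* fell to 0.755 and 0.839 times. In the same comparison 13.2% of all features tested were called higher and 12.9% lower. In siLAPTM4B cells 5 of the 9 were again higher and 1 lower, against 9.74% of features higher and 11.0% lower. The serum comparisons in siControl and in siLAPTM4B cells share no arrays. Of the 9 genes, 8 had the same sign in both and 6 were called in the same direction in both. The matching shares over all features were not counted.

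**Figure D1:**
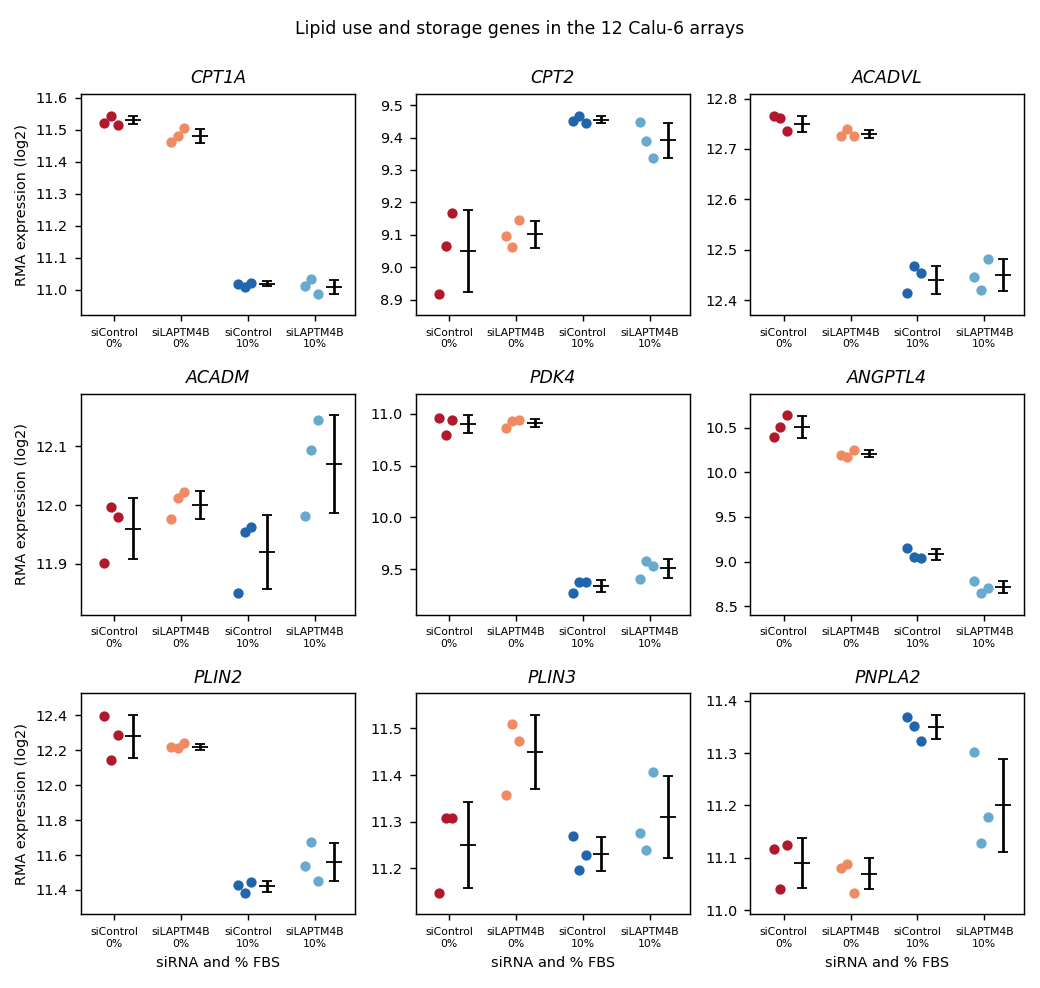
Expression of the 9 genes in each array (log2, RMA), by siRNA and percent FBS, with 1 point per array and a bar at the mean with 1 SD (n = 3); the vertical axes differ between genes and do not start at 0. *PDK4* lies at 10.8 to 10.95 in both groups without serum and at 9.26 to 9.58 in both groups with 10% FBS, and *CPT2* and *PNPLA2* lie lower without serum.

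*PDK4* encodes a kinase that switches off pyruvate dehydrogenase, so that less glucose-derived pyruvate is burned and more fatty acid can be. Its values were 10.95, 10.80 and 10.94 in siControl 0% FBS and 10.87, 10.93 and 10.94 in siLAPTM4B 0% FBS. They were 9.26, 9.37 and 9.37 in siControl 10% FBS and 9.41, 9.58 and 9.53 in siLAPTM4B 10% FBS. All 6 arrays without serum lay more than a full log2 unit above all 6 arrays with serum, and the groups without serum overlapped with each other. Serum withdrawal raised *PDK4* by 1.56 (SE 0.056, limma adjusted p = 8.1e-07) in siControl cells and by 1.40 (SE 0.058, adjusted p = 4.09e-07) in siLAPTM4B cells. Among the 18417 genes, these increases ranked 28 and 32 from the top.

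*ANGPTL4* encodes a secreted protein that inhibits lipoprotein lipase, the enzyme that frees fatty acids from circulating triglycerides. It measured 10.40, 10.50 and 10.64 in siControl 0% FBS and 10.20, 10.18 and 10.25 in siLAPTM4B 0% FBS. With 10% FBS it measured 9.15, 9.05 and 9.04 in siControl and 8.79, 8.65 and 8.71 in siLAPTM4B. No 2 groups overlapped, and their order was siControl 0%, siLAPTM4B 0%, siControl 10% and siLAPTM4B 10% from high to low. Serum withdrawal raised *ANGPTL4* by 1.43 (SE 0.067, limma adjusted p = 2.92e-06) in siControl cells and by 1.50 (SE 0.054, adjusted p = 1.92e-07) in siLAPTM4B cells. These increases ranked 38 and 25 from the top of the 18417 genes.

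The carnitine shuttle carries long fatty acids into mitochondria, and its enzymes moved in opposite directions. *CPT1A*, on the outer membrane, catalyses the rate-limiting step of that entry, and *CPT2*, on the inner membrane, reverses its reaction inside. *CPT1A* was tightly grouped, at 11.52, 11.54 and 11.51 in siControl 0% FBS and 11.46, 11.48 and 11.50 in siLAPTM4B 0% FBS, against 11.02, 11.01 and 11.02 in siControl 10% FBS and 11.01, 11.03 and 10.99 in siLAPTM4B 10% FBS. Every array without serum was above every array with it. Its increase was 0.51 (SE 0.037, limma adjusted p = 3.19e-05) in siControl cells and 0.47 (SE 0.047, adjusted p = 9.01e-05) in siLAPTM4B cells. *CPT2* measured 8.92, 9.06 and 9.17 in siControl 0% FBS and 9.10, 9.06 and 9.15 in siLAPTM4B 0% FBS, against 9.45, 9.47 and 9.45 in siControl 10% FBS and 9.45, 9.39 and 9.34 in siLAPTM4B 10% FBS. Here every array without serum was below every array with it. The change was -0.40 (SE 0.063, limma adjusted p = 0.00208) in siControl cells and -0.29 (SE 0.052, adjusted p = 0.0036) in siLAPTM4B cells.

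The acyl-CoA dehydrogenases open each round of beta-oxidation, *ACADVL* for very long chains and *ACADM* for chains of medium length, and serum withdrawal raised the former while no change in the latter passed the test. *ACADVL* measured 12.76, 12.76 and 12.74 in siControl 0% FBS and 12.73, 12.74 and 12.73 in siLAPTM4B 0% FBS. With serum it measured 12.41, 12.47 and 12.45 in siControl and 12.45, 12.42 and 12.48 in siLAPTM4B. The media did not overlap, and the siRNAs did within each. Its increase was 0.31 (SE 0.039, limma adjusted p = 0.000651) in siControl cells and 0.28 (SE 0.047, adjusted p = 0.00226) in siLAPTM4B cells. *ACADM* ranged from 11.85 to 12.14 over all 12 arrays, and its media overlapped in both kinds of cells. Its difference without against with serum was 0.04 (95% interval -0.076 to 0.15) in siControl cells and -0.07 (-0.194 to 0.056) in siLAPTM4B cells, the only sign that differed between the 2 among the 9 genes.

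Perilipins coat lipid droplets and control access to the fat within. *PLIN2* is the coat protein of droplets in most cells other than fat cells, and *PLIN3* is a cytosolic relative that moves onto new droplets. *PLIN2* measured 12.39, 12.15 and 12.29 in siControl 0% FBS, and 12.22, 12.21 and 12.24 in siLAPTM4B 0% FBS. With 10% FBS it measured 11.43, 11.38 and 11.45 in siControl, and 11.54, 11.67 and 11.45 in siLAPTM4B. The groups without serum lay apart from those with it and overlapped with each other. Serum withdrawal raised *PLIN2* by 0.86 (SE 0.064, limma adjusted p = 3.52e-05) in siControl cells and by 0.67 (SE 0.062, adjusted p = 5.78e-05) in siLAPTM4B cells, ranks 164 and 242 of 18417. *PLIN3* measured 11.15, 11.31 and 11.31 in siControl 0% FBS, 11.36, 11.51 and 11.47 in siLAPTM4B 0% FBS, 11.27, 11.20 and 11.23 in siControl 10% FBS and 11.28, 11.24 and 11.41 in siLAPTM4B 10% FBS. Its media overlapped in both kinds of cells. The difference of *PLIN3* was 0.02 (95% interval -0.103 to 0.147) in siControl cells and 0.14 (-0.0042 to 0.281) in siLAPTM4B cells, neither past the threshold.

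*PNPLA2* encodes adipose triglyceride lipase, which cuts the first fatty acid from the triglycerides of a droplet. It measured 11.12, 11.04 and 11.13 in siControl 0% FBS and 11.08, 11.09 and 11.03 in siLAPTM4B 0% FBS. With 10% FBS it measured 11.37, 11.35 and 11.32 in siControl and 11.30, 11.13 and 11.18 in siLAPTM4B. In both kinds of cells the arrays without serum lay below those with it. The change was -0.25 (SE 0.042, limma adjusted p = 0.00294) in siControl cells. In siLAPTM4B cells it was -0.14 (95% interval -0.265 to -0.0064), which did not pass the threshold (adjusted p = 0.14).

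**Figure D2:**
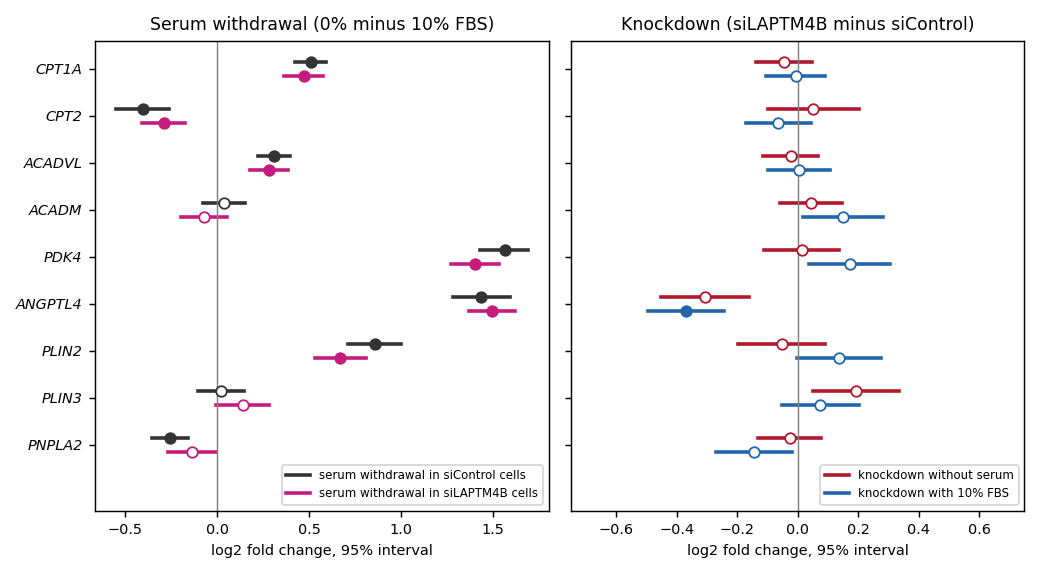
Log2 fold changes of the 9 genes with 95% intervals (n = 3 against 3 arrays), on serum withdrawal (left) and on knockdown (right), with different horizontal scales; filled points have an adjusted p under 0.05 in limma. On serum withdrawal 7 points are filled in siControl cells and 6 in siLAPTM4B cells, and on knockdown the only filled point is *ANGPTL4* with 10% FBS, at -0.37.

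Over the 9 genes, the median change on serum withdrawal was 0.31 in siControl cells and 0.28 in siLAPTM4B cells. Over all features the medians were -0.015 and -0.0058. Without regard to sign, the median size of change was 0.41 and 0.29 for the 9 genes and 0.087 and 0.083 for all features. The 9 genes lay at percentile 61.6 of an array's features or above, whereas all features include dim ones. No set of like brightness was compared. The changes of all genes ran from -2.91 to 3.39 in siControl cells and from -2.50 to 3.02 in siLAPTM4B cells, so that *PDK4* and *ANGPTL4* stood in the sparse upper tail but not at its end.

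**Figure D3:**
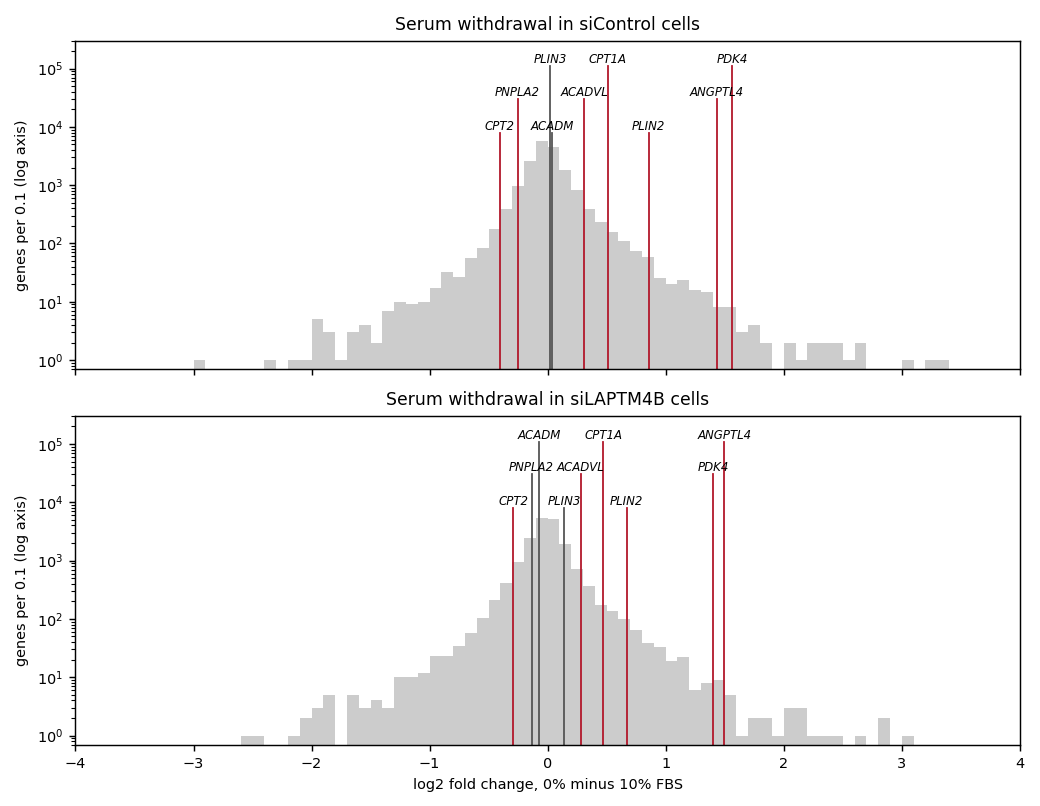
Number of genes (log axis) by log2 fold change on serum withdrawal, in bins of 0.1, in siControl cells (above) and siLAPTM4B cells (below); vertical lines mark the 9 genes, red where the adjusted p was under 0.05, and their heights only separate the names. *PDK4* (1.56 and 1.40) and *ANGPTL4* (1.43 and 1.50) lie in the upper tail and *PLIN3* and *ACADM* near the centre.

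The sequence just upstream of the start site is shown for the 3 genes that rose most and for *PNPLA2*, which fell in siControl cells. The promoters of genes that moved apart can thus be set side by side. *CPT2*, which fell more and was called lower in both kinds of cells, is not shown. The windows are the 250 bases before the start in RefSeq on GRCh38.p14, read along the gene's strand. *PDK4* lies on the minus strand (chr7:95596517-95596766), *ANGPTL4* on the plus strand (chr19:8363905-8364154), *PLIN2* on the minus strand (chr9:19127493-19127742) and *PNPLA2* on the plus strand (chr11:818664-818913). Capitals mark every match, on either strand, to the GC box GGGCGG, the CCAAT box CCAAT and the nuclear receptor half-site AGGTCA.
PDK4: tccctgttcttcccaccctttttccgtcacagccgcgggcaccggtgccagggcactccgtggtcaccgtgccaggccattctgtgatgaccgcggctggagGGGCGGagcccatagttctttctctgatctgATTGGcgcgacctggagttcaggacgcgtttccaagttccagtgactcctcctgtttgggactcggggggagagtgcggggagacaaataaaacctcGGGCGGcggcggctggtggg
ANGPTL4: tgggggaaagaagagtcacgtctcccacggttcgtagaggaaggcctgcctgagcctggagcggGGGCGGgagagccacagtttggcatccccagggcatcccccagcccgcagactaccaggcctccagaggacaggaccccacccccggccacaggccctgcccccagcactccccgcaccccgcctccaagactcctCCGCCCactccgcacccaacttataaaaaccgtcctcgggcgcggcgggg
PLIN2: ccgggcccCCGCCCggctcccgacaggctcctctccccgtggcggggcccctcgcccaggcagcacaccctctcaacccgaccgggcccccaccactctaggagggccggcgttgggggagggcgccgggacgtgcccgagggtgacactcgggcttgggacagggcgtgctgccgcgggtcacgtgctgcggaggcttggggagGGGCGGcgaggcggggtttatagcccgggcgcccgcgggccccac
PNPLA2: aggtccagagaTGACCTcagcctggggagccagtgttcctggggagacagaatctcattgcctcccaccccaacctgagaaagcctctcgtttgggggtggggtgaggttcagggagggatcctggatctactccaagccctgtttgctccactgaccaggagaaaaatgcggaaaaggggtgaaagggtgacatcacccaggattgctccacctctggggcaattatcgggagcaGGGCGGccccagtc
The PPAR-RXR pair is known to bind this half-site repeated with 1 base between the copies. That repeat, searched in the exact letters on both strands, was in none of the 10 windows of the 9 genes (*ACADVL* had 2 windows) and in 0.0171% of all 35116 RefSeq promoters of the same length. The single half-site was in 1 of the 10 windows, that of *PNPLA2*, where it lay 239 to 234 bases before the start on the opposite strand, and in 12.1% of all promoters. The window of *CPT2*, which also fell, held no half-site. The GC box was in 8 of the 10, against 42.6% of all, with no match for *CPT1A* and for 1 window of *ACADVL*. The CCAAT box was in those of *PDK4* and *PLIN3*, against 32.0% of all, and the FOXO core GTAAACA was in none, against 2.98%. A match to these letters is a description of the window and not a bound site, and elements farther from the start or within introns were not searched.

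On knockdown of *LAPTM4B*, the gene with the largest difference among the 9 was *ANGPTL4* in both media, and it was lower in siLAPTM4B cells. Without serum none of the 9 was called by limma, while 2 had an unadjusted p under 0.05 (*ANGPTL4* and *PLIN3*), and a test on each gene's own variance alone, run as an alternative, also called none after adjustment. Of all features, 1.74% were called lower. *ANGPTL4* was lower in siLAPTM4B cells by 0.31 on the log2 scale (change -0.31, SE 0.064, ratio 0.809) and its arrays did not overlap, with an adjusted p of 0.0512 that missed the threshold. That call turned with the processing, since the adjusted p ran from 0.00136 to 0.212 over the alternatives, and was 0.0431 without siControl 0% FBS replicate 1. At the unadjusted p under 0.01 that the study's methods use, *ANGPTL4* was the only one of the 9 to pass in limma, where 4.51% of features passed and were lower, and none of the 9 passed by the alternative test. The study's own list for serum-starved cells at that threshold does hold *ANGPTL4* among the genes lower after knockdown. The alternative test did not reproduce that entry. *PLIN3* was higher by 0.19 (SE 0.062, adjusted p = 0.183), also without overlap of its arrays. *CPT1A* did not overlap either, though its difference was only -0.04 (95% interval -0.137 to 0.049). The other 6 overlapped and had adjusted p-values of 0.733 or more.

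With 10% FBS, *ANGPTL4* was the only one of the 9 called, where 2.09% of features were called lower. It fell by 0.37 on the log2 scale (change -0.37, SE 0.055, ratio 0.774, limma adjusted p = 0.00991). The call was lost without siLAPTM4B 10% FBS replicate 3 (change -0.37, adjusted p = 0.0553) and by the alternative test after adjustment (adjusted p = 0.0859). By the unadjusted p under 0.01 *ANGPTL4* was again the only one of the 9, where 4.04% of features passed and were lower. *PDK4* was higher in siLAPTM4B cells by 0.17 (SE 0.06, adjusted p = 0.164), *ACADM* by 0.15 (SE 0.058, adjusted p = 0.213) and *PLIN2* by 0.14 (SE 0.062, adjusted p = 0.288). Their arrays did not overlap between the siRNAs, and none of the 3 passed the test. *PNPLA2* was lower by 0.14 (change -0.14, SE 0.055, adjusted p = 0.207), likewise without overlap. The intervals of the other 4 all included 0, with the widest reaching 0.202 for *PLIN3*. The knockdown comparisons in the 2 media share no arrays, and 6 of the 9 genes had the same sign in both. For single genes an exact permutation test of 3 arrays against 3 cannot go below p = 0.1. The shares of all features without overlap, or with the same sign in both media, were not counted. Lack of overlap on knockdown is thus only a description of the arrays.

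Whether serum withdrawal acted differently after knockdown was tested by the interaction over all 12 arrays, and limma called none of the 9, against 0.262% of features called in either direction. None had an unadjusted p under 0.05, and none was called under any alternative. The nearest were *PLIN2*, whose rise was smaller in siLAPTM4B cells by an interaction of -0.19 (95% interval -0.387 to 0.01, adjusted p = 0.485), and *PDK4* (-0.16, -0.335 to 0.0179, adjusted p = 0.51). For *ANGPTL4* the interaction was 0.06 (-0.125 to 0.252). Differences within these intervals could not be told from 0 with 3 arrays per group. The loss of the *PNPLA2* call in siLAPTM4B cells was likewise no tested difference, with an interaction of 0.12 (-0.0304 to 0.267, adjusted p = 0.57).

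The wider pathway was read from a list of 65 other genes of PPAR action, fatty acid uptake, oxidation and storage, of which 57 were measured. On serum withdrawal 16 of the 57 were called higher and 8 lower in siControl cells, and 13 higher and 9 lower in siLAPTM4B cells. Of all features, 13.2% and 12.9% were called higher and lower in the former and 9.74% and 11.0% in the latter, so that the lower calls in the list were near the share over all features. Their medians were 0.024 and -0.017, beside -0.015 and -0.0058 for all features. The genes for uptake and activation of fatty acids had the most calls among the roles in the list, with 7 of 10 called higher and 1 lower in siControl cells (median 0.33) and 6 higher and 1 lower in siLAPTM4B cells (median 0.39).

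*FABP3*, a carrier of fatty acids in the cytosol, rose by 2.64 (SE 0.041, limma adjusted p = 5.44e-08) in siControl and by 2.89 (SE 0.054, adjusted p = 1.06e-08) in siLAPTM4B cells. Its values were 11.68 to 11.75 in siControl 0% FBS, 11.28 to 11.35 in siLAPTM4B 0% FBS, 9.04 to 9.09 in siControl 10% FBS and 8.36 to 8.48 in siLAPTM4B 10% FBS, so that no 2 groups overlapped. *ACSL1*, which activates long-chain fatty acids to their CoA esters, rose by 2.05 (SE 0.076) and 1.81 (SE 0.046). *CD36*, a surface receptor for fatty acids, rose by 1.17 (SE 0.08) and 0.996 (SE 0.093), though it was a dim feature at 5.62 to 6.21 with serum, close to the lower quartile of the arrays. *SLC27A2*, a fatty acid transporter, rose by 0.73 and 0.65, and *LPIN1*, a phosphatase of triglyceride synthesis, by 0.67 and 0.83. *ACSL5*, of the same enzyme family as *ACSL1*, moved the other way, by -0.36 and -0.59.

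Mitochondrial beta-oxidation held 14 measured genes, of which 2 were called higher and 2 lower in siControl cells and 1 higher and 2 lower in siLAPTM4B cells. These counts were near the shares over all features, 13.2% higher and 12.9% lower in siControl and 9.74% and 11.0% in siLAPTM4B cells. The same shares apply to the counts of the other roles below. *ETFDH*, which passes electrons from acyl-CoA dehydrogenases to ubiquinone, was among the lower ones (-0.40 and -0.56). In siControl cells the alternative test left it uncalled (adjusted p = 0.0604). Of the 3 other genes of the carnitine shuttle, 1 was called lower in siControl cells and 2 in siLAPTM4B cells, *SLC22A5*, the carnitine importer, in both (-0.45 and -0.53). Of 5 genes for peroxisomal oxidation and ketogenesis, 2 and 1 were called lower, the enzyme gene *EHHADH* in both (-0.40 and -0.59). Of 4 genes for control of pyruvate dehydrogenase, 2 were called higher and 1 lower in either kind of cells. *PDK2*, a relative of *PDK4*, was the lower one (-0.42 and -0.27), opposite to *PDK4*. Of 13 genes for lipid droplets and triglyceride turnover, 3 were called higher in siControl and 2 in siLAPTM4B cells, and none lower.

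**Figure D4:**
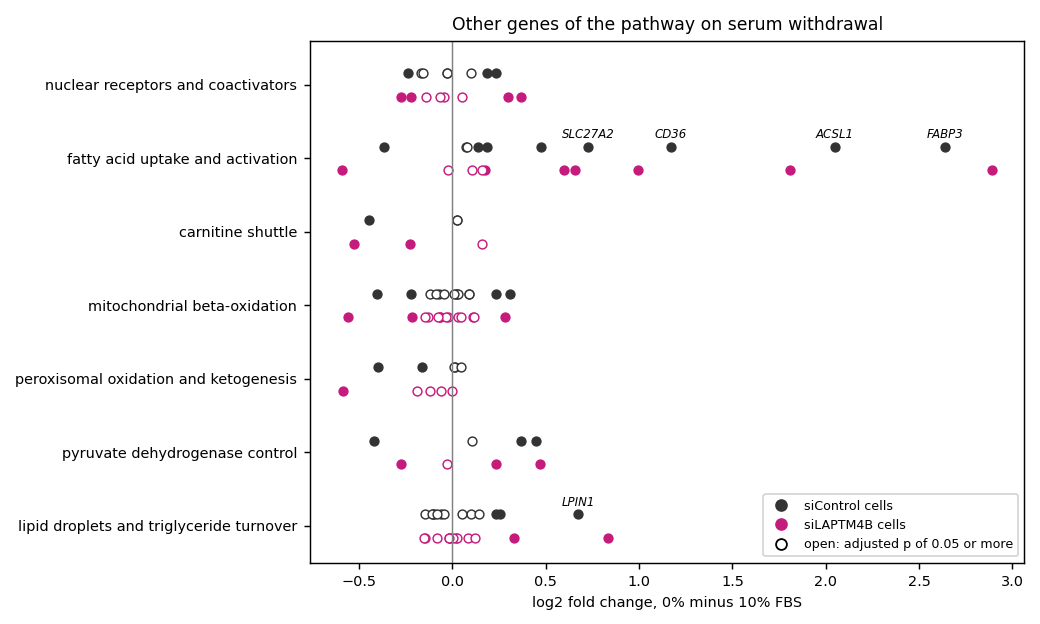
Log2 fold change on serum withdrawal of the 57 other genes of the pathway by role, with 1 point per gene, for siControl cells (black) and siLAPTM4B cells (magenta); open points have an adjusted p of 0.05 or more, and names are set beside the siControl points. Uptake and activation reaches from -0.59 (*ACSL5*) to 2.89 (*FABP3*), while the points of the oxidation genes lie on both sides of 0.

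The receptors themselves, looked at after their values were seen where they are not among the largest changes, had small changes. Of 8 nuclear receptors and coactivators, 2 were called higher and 1 lower in siControl cells, and 2 higher and 2 lower in siLAPTM4B cells. Of all features, 13.2% were called higher and 12.9% lower in siControl cells, and 9.74% higher and 11.0% lower in siLAPTM4B cells. *PPARG* fell on serum withdrawal by 0.24 and 0.28 on the log2 scale (change -0.24 with adjusted p = 0.0045, and -0.28 with adjusted p = 0.00358). *PPARD* rose by 0.18 (adjusted p = 0.0111) and 0.30 (adjusted p = 0.0015), and *RXRA*, the retinoid X receptor alpha, by 0.24 (adjusted p = 0.00241) and 0.37 (adjusted p = 0.000694). The changes of *PPARA* were -0.03 and -0.04 and did not pass limma's test. Receptor activity was not measured.

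On knockdown, 3 of the 57 were called lower without serum and none higher, and with 10% FBS 4 were lower and 1 higher. Of all features, 1.74% were called lower and 0.591% higher without serum, and 2.09% lower and 1.99% higher with 10% FBS. *FABP3* was lower in both media, with changes of -0.38 (SE 0.045, limma adjusted p = 0.00541) without serum and -0.62 (SE 0.05, adjusted p = 0.000633) with it. The others lower without serum were *CD36* (-0.49, adjusted p = 0.0203) and the droplet coat gene *PLIN4* (-0.35, adjusted p = 0.0121). With 10% FBS they were *CIDEB*, of a family of droplet proteins (-0.34, adjusted p = 0.048), *RXRA* (-0.23, adjusted p = 0.0265) and *PPARD* (-0.22, adjusted p = 0.0264). *ACSL5* was higher with 10% FBS (0.43, SE 0.051, adjusted p = 0.00413). The calls of *FABP3* without serum and of *ACSL5* were lost by the alternative test (adjusted p = 0.0658 and 0.0575) but not when single arrays were left out. The call of *FABP3* with 10% FBS was kept under all 15 alternatives. The others were lost when single arrays were left out, those of *RXRA* and *PPARD* for each of the 6 arrays, with adjusted p-values up to 0.0902 for *CD36*, 0.0653 for *PLIN4*, 0.157 for *CIDEB*, and 0.124 for both *RXRA* and *PPARD*. The alternative test also left *CD36* (adjusted p = 0.18), *PLIN4* (0.0948) and *CIDEB* (0.215) uncalled. Adjustment over all 33252 features lost the calls of *CD36*, *PLIN4*, *CIDEB*, *RXRA* and *PPARD* too. The interaction called none of the 57.

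For *ANGPTL4*, *PDK4* and *PLIN2*, whose group means spanned the widest range, the genes most like them were found by the root mean square difference of values centred on the gene's mean over the 12 arrays. The nearest to *ANGPTL4* were *INSIG1*, a regulator of sterol synthesis (0.121), *VEGFA*, an angiogenic growth factor (0.123), and the cadherin gene *CDH6* (0.123), where the root mean square of *ANGPTL4* around its own mean was 0.754. The nearest to *PDK4* were the small heat shock protein gene *HSPB8* (0.0737), the sterol exporter gene *ABCG1* (0.0874) and *CABP7*, for a calcium-binding protein (0.0932), against 0.746 for *PDK4* itself. The nearest to *PLIN2* were *MEGF9* (0.0609), *KLHL24* (0.0704) and the forkhead gene *FOXL1* (0.0728), against 0.391. All of these had higher group means without serum. The group means of *INSIG1* (11.56, 11.29, 10.14 and 9.97), *VEGFA* (9.66, 9.57, 8.44 and 8.10) and *CDH6* (11.05, 11.02, 9.70 and 9.46) are given in the order siControl 0%, siLAPTM4B 0%, siControl 10% and siLAPTM4B 10% FBS. Their likeness to *ANGPTL4* follows from how they were chosen.

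**Figure D5:**
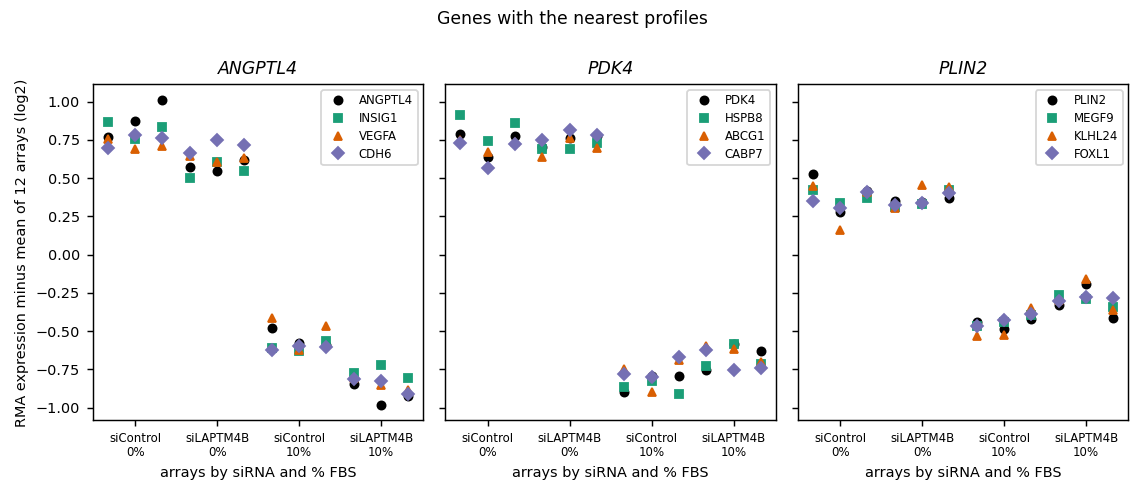
Log2 expression minus the gene's mean over 12 arrays for *ANGPTL4*, *PDK4* and *PLIN2* (black circles) and the 3 genes nearest to each, with 1 point per array by siRNA and percent FBS. In every panel the arrays without serum lie above 0 and those with 10% FBS below it, and the 3 lowest arrays of *ANGPTL4* are those of siLAPTM4B 10% FBS.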

How the data were processed

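The values were deposited by the authors as log2 signals, 1 per feature and array, made by Robust Multichip Array (RMA: background correction, quantile normalization between arrays, summary over a feature's probes). Quantile normalization sets a common distribution, so that a shift shared by all genes would not be seen. The genome build and annotation of the features are not given in the sources used here, and 0 columns were left unmapped. Gene symbols came from the platform annotation: 19460 of 33252 features had 1 symbol, 1754 several and 12038 none, and only the first were used. Where a gene had several features the brightest was taken.

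Each comparison of 2 groups was fitted to its 6 arrays, and the interaction to all 12, with lmFit and eBayes in limma 3.58.1 (R 4.3.3), with Benjamini-Hochberg adjustment over 19460 features and a threshold of 0.05. The fits were tested on simulated data. No depth is defined for arrays, and the 3 arrays per group limit the precision. The 9 genes and the lists were chosen with earlier results of these data known. Named genes are all 9, *LAPTM4B*, at most 4 pathway genes called per comparison and direction, and the 3 genes nearest in profile to each of the 3 of the 9 with the widest range. Promoter windows came from RefSeq (GRCh38.p14), where all 9 genes matched. The alternatives changed the features adjusted over, a filter on dim features, the prior variance, a replicate block, centring, the choice of rows, the arrays in the fit and the test (Student's t-test, here the alternative test or the methods' t-test, which the study names for its in vitro experiments in general and not for the arrays), and left out each array in turn.

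Replicate numbers come from the labels, which name no shared day or batch. Deviations from the group means of same-numbered arrays correlated at 0.37, 0.13 and 0.20 between the media in siControl cells. In siLAPTM4B cells they correlated at 0.32, 0.13 and -0.17, and between the siRNAs at 0.39, 0.069 and 0.18 without serum and at 0.37, 0.15 and -0.079 with 10% FBS. Arrays with different numbers were not compared in this way, so these values do not settle whether the numbers pair the arrays.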

Additional observations from a re-analysis of the deposited data

How the results depend on the processing

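On serum withdrawal 7 of the 9 genes were called in siControl cells under all 15 alternatives, and in siLAPTM4B cells 6 were called under all but the intensity trend with a robust prior, which called 8 by adding *PLIN3* (adjusted p = 0.0318) and *PNPLA2* (adjusted p = 0.0273). On knockdown without serum, where 0 were called, 1 was called with dim features left out, with the replicate block, with arrays centred on their median, with the mean of a gene's rows and with all 12 arrays in one fit, 2 with the trend and robust prior, and 0 to 1 with an array left out (1 without siControl 0% FBS replicate 1, *ANGPTL4* at an adjusted p of 0.0431). With 10% FBS, where 1 was called, the trend and robust prior called 3, by adding *ACADM* (adjusted p = 0.0339) and *PNPLA2* (adjusted p = 0.0466), the adjusted methods' t-test 0 (*ANGPTL4* at 0.0859), and leaving out an array 0 to 1. The replicate block changed no other call among the 9 genes. Over all features the counts called ran from 27 to 1126 (main 454) on knockdown without serum, 177 to 1686 (793) with 10% FBS, 3632 to 5907 (5064) and 2713 to 4924 (4027) on serum withdrawal in siControl and siLAPTM4B cells, and 17 to 163 (51) for the interaction. With the replicate block they were 656, 833, 5608, 4014 and 84. Of 702 values of single genes among the 9, 678 kept direction and call, 2 lost the call, 12 gained it and 10 changed sign. The changes of sign were all of differences near 0: *CPT1A* with 10% FBS when arrays were centred on their median (0.0082), and, with an array left out, *CPT1A* (-0.0169 to 0.0054) and *ACADVL* (-0.0124 to 0.0186) on knockdown with 10% FBS, *CPT2* (-0.0144 to 0.111), *PLIN2* (-0.117 to 0.007) and *PDK4* (-0.0365 to 0.0418) on knockdown without serum, and *PLIN3* on serum withdrawal in siControl cells (-0.0052 to 0.0754). Of 478 values of the other named genes, 440 kept the call and 38 lost it, with no change of sign. The causes of these changes were not tested.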
